A study of Saccharomyces cerevisiae with 61 samples.

Results

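The proteasome genes described here are 34 of the 5592 named genes on the array. They are 32 genes for subunits of the proteasome, namely 7 of the alpha ring and 7 of the beta ring of the 20S core, 10 of the 19S base and 8 of the 19S lid, together with the polyubiquitin gene UBI4 and BLM10. They were chosen by symbol and not by any measured value, all 34 had a probe (33 had 1 probe and BLM10 had 2), and no filter on low values was applied. BLM10, which codes for an alternative activator of the core, is neither a subunit of the 26S proteasome nor a ubiquitin gene, and it is described apart from the others.

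The series measured total RNA of budding yeast, strain BY4741, on 61 two-colour arrays after release from arrest by mating pheromone, a step that lets cells enter the cycle together. Cells deleted for RAD53, which codes for the main effector kinase of the replication checkpoint, received 0.033% methyl methanesulfonate (MMS, which methylates DNA) or 0.2 M hydroxyurea (HU, which starves replication of nucleotides) and were sampled at 30 and 75 min, beside untreated rad53Δ cells. Wild-type cells received MMS, HU or 50 µM camptothecin (CPT, a topoisomerase I poison) and were sampled at 30, 45, 60 and 75 min, beside untreated wild-type cells. A strain labelled galsicΔP, with NRM1 deleted (NRM1 codes for a corepressor of G1 genes) or as its own parent, was sampled without treatment at 40 and 100 min, and the parent also at 0 min. The labels do not explain the name galsicΔP, so nothing more is said here about that strain. A single untreated 0 min extract of replicate 1 exists for rad53Δ cells and another for wild-type cells.

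The arrays form closed loops and have no common reference. In replicate 1 of wild type and rad53Δ, treated and untreated extracts were joined through the 0 min extract and the earlier or later times of the same treatment. In replicate 2 the extracts of 1 time were joined to each other directly. In both, the value of a treated extract minus the untreated extract of the same strain, replicate and time is called a pair value below. Values are log2 ratios, where 1 means a doubling if the deposited logarithm is of base 2 as assumed, and ± gives the standard error (SE). A gene passed when its limma p-value, adjusted by Benjamini-Hochberg over 6249 features, was below 0.05. Groups held at most 2 extracts, and the labels do not say that replicates were separate cultures. The p-values therefore measure only a spread between extracts. For each feature that spread was pooled over the extracts of all strains and drawn towards the spread of all features. It is not the spread of the compared groups alone. In the comparisons below the median of all features lay between -0.04 and 0.02.

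Some labels contradict each other. On 2 wild-type arrays the title names an MMS extract at 0 min where other entries give the untreated one, which was used, and on 6 galsicΔP arrays the genotype entry contradicts the title, which was used. In the nrm1Δ extracts the NRM1 probe, set against the parent, stood at -3.77 and -3.28 at 40 min and at -4.58 and -5.04 at 100 min. No array joined rad53Δ with wild-type RNA, so the loss of RAD53 could not be read as a difference between strains. The RAD53 ratio between extracts of the same strain ranged from -0.28 to 0.06 on the 15 rad53Δ arrays and from -1.85 to 2.31 on the 36 wild-type arrays.

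The 26S proteasome degrades proteins that carry chains of ubiquitin. Its 20S core is a barrel of stacked rings, with alpha rings that gate the entry and beta rings that hold the cutting sites. The 19S particle caps the barrel. The base of that cap holds the ATPases that unfold a substrate, and its lid removes the ubiquitin. In yeast the transcription factor Rpn4 activates nearly all subunit genes together and is itself degraded by the proteasome, and UBI4, a gene of head-to-tail ubiquitin repeats, supplies ubiquitin under stress.

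MMS raised nearly the whole set in wild-type cells. Over the 4 times, 33 of the 34 members rose against untreated cells and BLM10 was the exception, where 28% of all features rose. The median of the members was 1.1, and the 32 subunit genes ranged from 0.47 to 1.55. The subcomplexes lay close together, with medians of 1.22 for the alpha ring, 1.28 for the beta ring, 0.97 for the base and 1.1 for the lid. In the plot of the wild-type response of each member, the MMS values of all subunit genes lie to the right of their HU values.

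**Figure D1:**
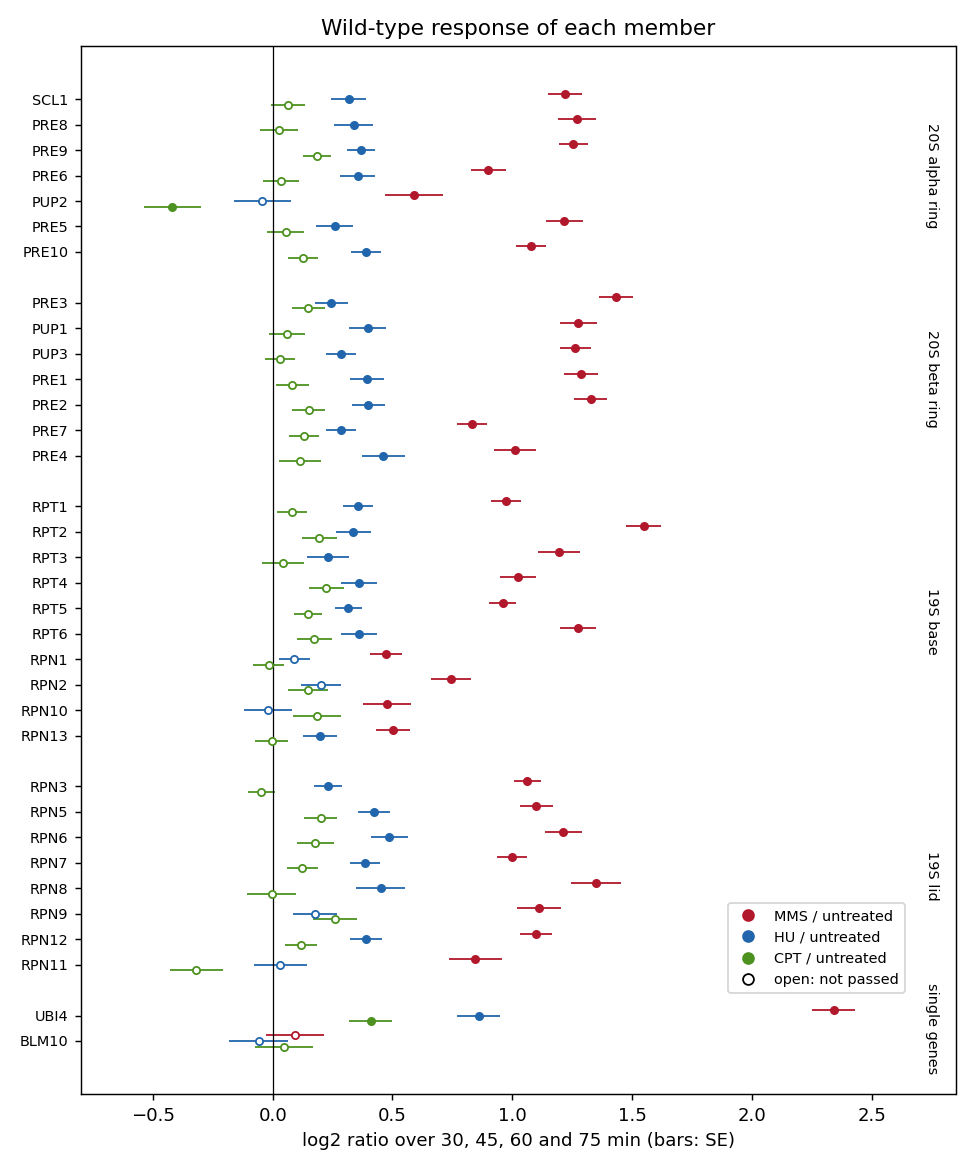
Each row is 1 of the 34 members, grouped by subcomplex, and the x axis gives its wild-type log2 ratio over 30, 45, 60 and 75 min for MMS, HU and CPT against untreated cells, with the SE as bars and open circles for genes that did not pass. UBI4 has the highest MMS value at 2.34, and BLM10 stays near 0 under all 3 agents.

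UBI4 (YLL039C) had the highest change of the members. Its MMS pair values were 0.95, 1.70, 2.78 and 3.00 in replicate 1 and 1.72, 2.25, 2.80 and 3.51 in replicate 2, at 30, 45, 60 and 75 min. All 8 were above 0, and each replicate was higher at every later time. The mean over times was 2.34 ± 0.09, a 5.07-fold rise (limma adjusted p = 1.1e-16). The ribosomal fusion genes RPL40A, RPL40B and RPS31, which supply ubiquitin in growing cells, stood at 0.14 ± 0.07, -0.00 ± 0.07 and 0.08 ± 0.14 in MMS, and none of the 3 passed. UBI4 shares its ubiquitin coding sequence with these genes, and which part of UBI4 its probe reads is not given in the sources used here.

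In the alpha ring all 7 genes rose in MMS, from 0.59 for PUP2 to 1.27 for PRE8. The PRE8 (YML092C) pair values ran from 0.86 through a median of 1.25 to 1.68, with a mean of 1.27 ± 0.08 (2.41-fold, limma adjusted p = 1.7e-12). PUP2 (YGR253C) was the lowest of the ring and differed between replicates. Its pair values were 0.37, 0.39, 0.31 and -0.04 in replicate 1 and 0.50, 0.99, 1.03 and 1.17 in replicate 2, so the 2 replicates moved apart with time. The PUP2 mean was 0.59 ± 0.12 (limma adjusted p = 0.00016), and replicate 1 alone gave 0.26 (limma adjusted p = 0.097).

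In the beta ring all 7 genes rose as well. PRE3, PUP1 and PRE2 code for the subunits with the caspase-like, trypsin-like and chymotrypsin-like sites, and they rose by 1.43 ± 0.07, 1.28 ± 0.08 and 1.33 ± 0.07. PRE3 (YJL001W) had pair values from 0.64 through a median of 1.48 to 2.01, a 2.70-fold mean rise (limma adjusted p = 1.1e-14). The least changed gene of this ring was PRE7 (YBL041W), with pair values from 0.43 through 0.95 to 1.17 and a mean of 0.83 ± 0.06. All 8 pair values of both genes were above 0.

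In the 19S base the ATPase genes RPT1 to RPT6 rose by 0.96 to 1.55, and the 4 other base genes by 0.47 to 0.74. RPT2 (YDL007W), whose product opens the gate of the core, had pair values of 0.48, 1.1, 2.06 and 2.25 in replicate 1 and 0.86, 1.61, 1.86 and 2.17 in replicate 2. The mean of RPT2 was 1.55 ± 0.07 (2.92-fold, limma adjusted p = 6.6e-15). The scaffold genes RPN1 (YHR027C) and RPN2 rose by 0.47 ± 0.06 and 0.74 ± 0.08, and the ubiquitin receptor genes RPN10 and RPN13 by 0.48 ± 0.10 and 0.50 ± 0.07. The RPN10 pair values were -0.66, -0.06, 0.65 and 1.0 in replicate 1 and 0.17, 1.11, 0.67 and 0.94 in replicate 2, so 6 of 8 were above 0. RPN10 stood at 0.72 without wild-type replicate 1 and at 0.23 without replicate 2, where it did not pass (limma adjusted p = 0.058). RPN1 pair values ran from 0.10 through 0.52 to 0.68. The difference between the ATPase and the other base genes was not tested, since each gene is read by its own probe.

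In the lid all 8 genes rose. RPN8 (YOR261C), whose product pairs with the deubiquitinase of the lid, had pair values from 0.57 through 1.52 to 1.75 and a mean of 1.35 ± 0.10 (limma adjusted p = 4.8e-11). RPN11 (YFR004W), the gene of that deubiquitinase, had the smallest mean of the lid, 0.85 ± 0.11. Its pair values ran from 0.49 through 0.66 to 1.45, and its replicate means were 0.60 and 1.09. The remaining lid genes, RPN3, RPN5, RPN6, RPN7, RPN9 and RPN12, rose by 1.0 to 1.21.

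BLM10 (YFL007W) showed no rise in MMS. Its pair values ran from -0.24 through 0.10 to 0.38, with 5 of 8 above 0 and a mean of 0.09 ± 0.12 (limma adjusted p = 0.54). Its 2 probes gave 0.15 ± 0.08 and 0.04 ± 0.18.

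The MMS response was present at the first time sampled and grew afterwards. At 30 min 26 members were higher (6.64% of all features were), at 45 min 32 (14.5%), at 60 min 33 (19.2%) and at 75 min 32 (21.4%). The member medians were 0.68, 1.15, 1.23 and 1.31 at these times. At 30 min RPN10 was the 1 member below 0, at -0.24. The growth itself was tested as the response at 75 min minus that at 30 min, in which 21 of 34 members passed, all with a larger response at 75 min (11.4% of all features). UBI4 gained 1.92 ± 0.25, RPT2 1.54 ± 0.21, PRE1 1.26 ± 0.20 and RPN10 1.21 ± 0.28, while RPN1 gained 0.07 ± 0.18 (limma adjusted p = 0.82). The 21 genes were 10 with wild-type replicate 1 left out, 13 with replicate 2 left out and 10 with arrays scaled to equal spread.

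**Figure D2:**
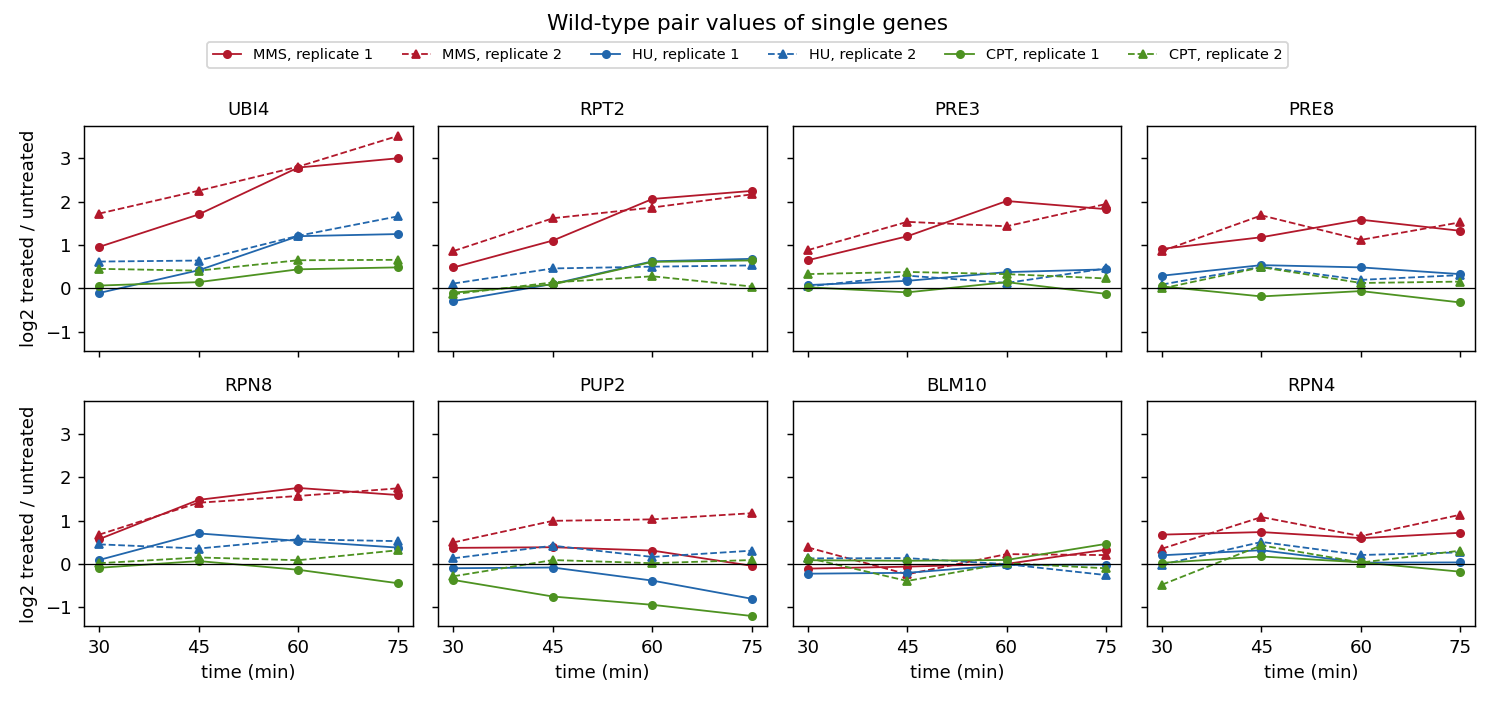
Each panel is 1 gene, with time in min on the x axis and the wild-type log2 pair value of each replicate on the y axis for MMS, HU and CPT. UBI4, RPT2, PRE3 and RPN8 stand higher at 75 than at 30 min in MMS in both replicates, while PUP2 separates by replicate and BLM10 stays within -0.39 and 0.46.

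HU raised the members by less than MMS. Over the 4 times 27 of 34 rose (15.8% of all features), with a member median of 0.34 against 1.1 in MMS. The members that did not pass were PUP2, RPN1, RPN2, RPN9, RPN10, RPN11 and BLM10. Medians were 0.34 for the alpha ring, 0.39 for the beta ring, 0.27 for the base and 0.39 for the lid, and the largest subunit change was that of the lid gene RPN6 at 0.49 ± 0.08 (limma adjusted p = 3.1e-05). Averaging the times of each replicate before the fit gave a count of 19 (8.83% of all features).

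UBI4 again led, with HU pair values of -0.11, 0.41, 1.20 and 1.25 in replicate 1 and 0.62, 0.64, 1.21 and 1.66 in replicate 2. Its mean was 0.86 ± 0.09 (1.81-fold, limma adjusted p = 8.8e-08). RPT2 followed the same course, from -0.30 at 30 min in replicate 1 to 0.68 at 75 min, and from 0.11 to 0.53 in replicate 2. PRE8, PRE3, PRE7 and RPN8 were above 0 in all 8 HU pairs, with medians of 0.31, 0.23, 0.31 and 0.49. PUP2 and RPN11 fell below 0 only in replicate 1, where PUP2 reached -0.80 and RPN11 -0.49 at 75 min.

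At 30 min in HU the limma test passed 0 members, and 2 had an unadjusted p below 0.05. At 45 min 3 passed, PUP1, RPN5 and RPN6 (2.91% of all features were higher), at 60 min 17 (6.39%) and at 75 min 17 (10.2%). The 75 min minus 30 min test passed for UBI4, which gained 1.20, and RPT2, which gained 0.70 (3.87% of all features gained), and the member median of that change was 0.23. The median was 0.10 without wild-type replicate 1 and 0.39 without replicate 2. The UBI4 change passed in neither (limma adjusted p = 0.098 and 0.056) nor with arrays scaled to equal spread (0.061), and the RPT2 change was lost without replicate 1 (0.32) and with that scaling (0.11).

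CPT changed little in the set. UBI4 was the 1 member that rose (2.48% of all features), by 0.41 ± 0.09 (limma adjusted p = 0.011). PUP2 was the 1 that fell (3.54% of all features), at -0.42 ± 0.12 (limma adjusted p = 0.039). Both counts lay near the shares of all features. The UBI4 pair values in CPT were 0.06, 0.14, 0.44 and 0.48 in replicate 1 and 0.45, 0.41, 0.65 and 0.66 in replicate 2, all above 0. The UBI4 call did not hold without either wild-type replicate (limma adjusted p = 0.058 and 0.12). The PUP2 pair values were -0.37, -0.75, -0.94 and -1.20 in replicate 1 and -0.28, 0.09, 0.02 and 0.09 in replicate 2, so the fall rested on replicate 1, and without it the mean was -0.02. The member median in CPT was 0.12, with 28 of the 34 means above 0, and it was 0.04 without wild-type replicate 2.

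At single times the limma test passed 0 members in CPT. Unadjusted p-values below 0.05 were found for 10 higher members at 60 min and 3 at 75 min, and for 1 lower member at 30 min and 1 at 75 min. RPT2 stood at 0.61 and 0.64 at 60 and 75 min in replicate 1 but at 0.28 and 0.04 in replicate 2.

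The agents were also set against each other. These comparisons use the same treated extracts as the ones above, so they are not independent of them. Against HU, 33 members were higher in MMS (20.5% of all features), with a median of 0.77 and with UBI4 at 1.48 ± 0.09, RPT2 at 1.21 ± 0.07 and PRE3 at 1.19 ± 0.07 in front. Against CPT, 33 members were again higher in MMS (27.3% of all features), with a median of 1.02. BLM10 was the member that did not pass in either, at 0.15 ± 0.12 against HU and 0.04 against CPT.

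**Figure D3:**
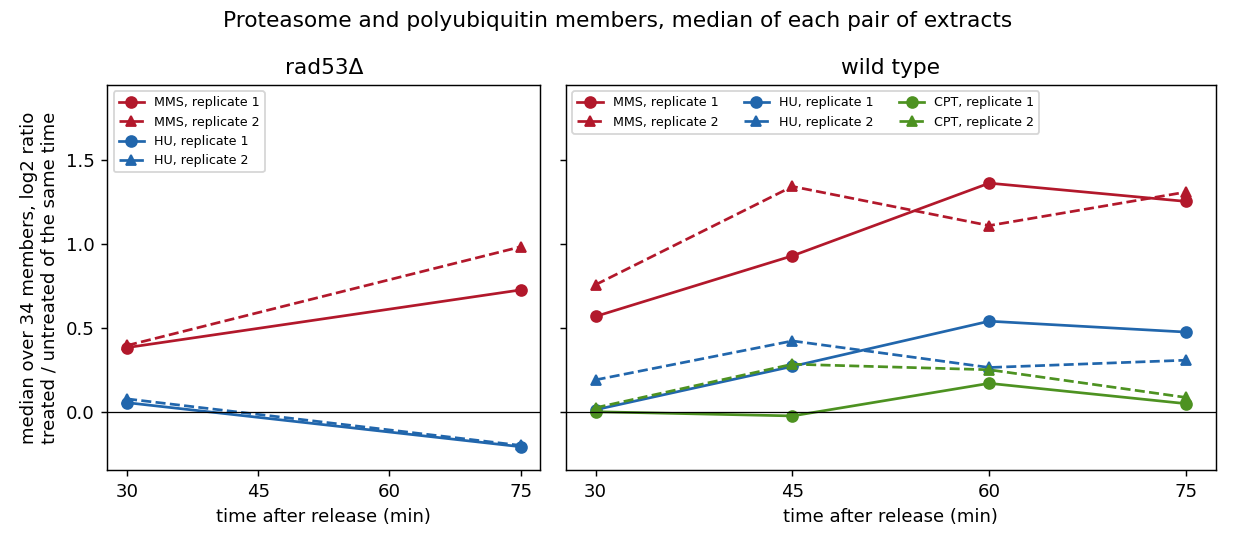
The y axis gives the median log2 pair value over the 34 members at each time in min, for rad53Δ (left) and wild type (right), with circles for replicate 1 and triangles for replicate 2. The wild-type MMS medians lie between 0.57 and 1.36, the rad53Δ MMS medians between 0.38 and 0.98, and the rad53Δ HU medians drop to -0.21 and -0.20 at 75 min.

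In rad53Δ cells MMS still raised nearly the whole set. Over 30 and 75 min 32 members rose (8.59% of all features), PUP2 and BLM10 did not pass, and the median was 0.65. By subcomplex the medians were 0.66 for the alpha ring, 0.59 for the beta ring, 0.62 for the base and 0.70 for the lid. UBI4 pair values were 0.73 at 30 min and 1.97 at 75 min in replicate 1, and 0.95 and 1.93 in replicate 2, with a mean of 1.39 ± 0.13 (limma adjusted p = 2.1e-08). RPT3 and RPT2 followed at 1.12 ± 0.12 and 0.95 ± 0.10. Without rad53Δ replicate 2 the count of 32 was 17.

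In rad53Δ cells at 30 min in MMS, UBI4 was the 1 member that passed (0.4% of all features), although all 34 means were above 0 and their median was 0.42. At 75 min 32 members passed (10.5%), with a median of 0.88. RPT2 pair values were 0.59 and 1.15 in replicate 1 and 0.50 and 1.56 in replicate 2, PRE3 values 0.32 and 1.0 and then 0.51 and 1.02. The 75 min minus 30 min test passed for UBI4 at 1.11 ± 0.25 and the alpha ring gene PRE9 at 0.84 ± 0.17 (0.592% of all features), with a member median of 0.47. Neither passed with arrays scaled to equal spread, where the median was 0.17, or without rad53Δ replicate 1 or 2, and the count was 18 with rad53Δ fitted alone and 24 in the fit of single arrays.

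In rad53Δ cells no member passed as higher in HU. Over both times the limma test passed 0 members upward, near the 3.97% of all features that were higher, with 0 at an unadjusted p below 0.05. In the fit of single arrays 1 was higher (10.7% of all features). The member median was -0.06 in the main fit. The beta ring gene PUP3 (YER094C) alone was lower, at -0.40 ± 0.09 (limma adjusted p = 0.0059). A single call among the members is a share near the 3.18% of all features that were lower. PUP3 pair values in HU were -0.14 and -0.61 in replicate 1 and -0.07 and -0.79 in replicate 2, all below 0. The PUP3 call was lost without rad53Δ replicate 1 (limma adjusted p = 0.19), without replicate 2 (0.35) and with slide-specific dye terms (0.27). At 75 min 4 members were lower, PUP3, PRE3, PRE10 and RPN7 (7.65% of all features). At that time the member medians were -0.21 and -0.20 in the replicates, with 5 and 4 of 34 members above 0. In wild-type HU at 75 min the medians were 0.47 and 0.31, with 31 and 33 members above 0.

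UBI4 pair values in rad53Δ HU were -0.22 at 30 min and 0.44 at 75 min in replicate 1, and 0.21 and 0.55 in replicate 2. The 75 min values were the highest of any member, but their mean of 0.49 ± 0.18 did not pass (limma adjusted p = 0.06), and UBI4 was not tested against the subunit genes. RPT2 stood at -0.26 and -0.24 at that time, and PRE8 at -0.04 and -0.13. Within rad53Δ, MMS against HU gave 33 higher members (11.2% of all features) with a median of 0.74 and BLM10 as the exception. That median averages 30 and 75 min, while the wild-type median of 0.77 also takes in the times between them. These medians therefore do not compare the strains at the same times.

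The responses of both strains were compared with an interaction term over 30 and 75 min, the times they share. For MMS, 9 members had a smaller response in rad53Δ than in wild type (3.44% of all features), UBI4 at -0.90 ± 0.18, the beta ring genes PRE3, PRE1, PRE2, PUP1 and PUP3 at -0.61 to -0.56, and the ATPase genes RPT6, RPT2 and RPT1 at -0.51, -0.49 and -0.43. The median difference over the 34 members was -0.32, 30 of the 34 were below 0, and the lowest adjusted p was 0.0027. No alpha ring, lid or non-ATPase base gene passed, although SCL1 of the alpha ring lay at the threshold (-0.46 ± 0.14, limma adjusted p = 0.05). The lid gene RPN8 did not pass but also had lower pair values in rad53Δ. At 30 and 75 min they were 0.23 and 0.55, then 0.29 and 1.18, in rad53Δ replicates 1 and 2. In wild type they were 0.57 and 1.59, then 0.68 and 1.74. RPN10 at 0.31 ± 0.20 leaned the other way (limma adjusted p = 0.46). Whether the subcomplexes differed from each other here was not tested. The count of 9 was 0 without rad53Δ replicate 1, 1 without rad53Δ replicate 2, 5 without wild-type replicate 2 and 0 with arrays scaled to equal spread, and 15 in the fit of single arrays.

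For HU, 4 members had a smaller response in rad53Δ than in wild type (1.39% of all features). These were PUP3 at -0.71 ± 0.13, PRE3 at -0.53 ± 0.14, PRE10 at -0.53 ± 0.13 and RPN7 at -0.49 ± 0.13. The median difference was -0.30, and 32 of the 34 members were below 0. UBI4 stood at -0.61 ± 0.18 (limma adjusted p = 0.068). This count was 0 without rad53Δ replicate 2, 1 without rad53Δ replicate 1 and 1 with arrays scaled to equal spread or with 1 value per replicate and treatment, and 13 in the fit of single arrays.

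Split by time, the differences between strains that passed were those at 75 min, and whether they differed between the 2 times was not tested. For HU at 75 min the response of 13 members was smaller in rad53Δ than in wild type (3.86% of all features), with a median difference of -0.61 and all 34 members below 0. PUP3 stood at -1.13 ± 0.18, PRE3 at -1.02 ± 0.20, UBI4 at -0.96 ± 0.25 and RPT2 at -0.85 ± 0.21. For MMS at 75 min 7 members passed (4.21%), with UBI4 at -1.31 ± 0.25 and a median of -0.41. At 30 min the limma test passed 0 members for either agent, with 4 lower and 1 higher at an unadjusted p below 0.05 for MMS and 0 for HU. These tests at single times were chosen after the data were seen. In the same 2 times wild-type HU alone had raised 11 members (6.95% of all features).

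**Figure D4:**
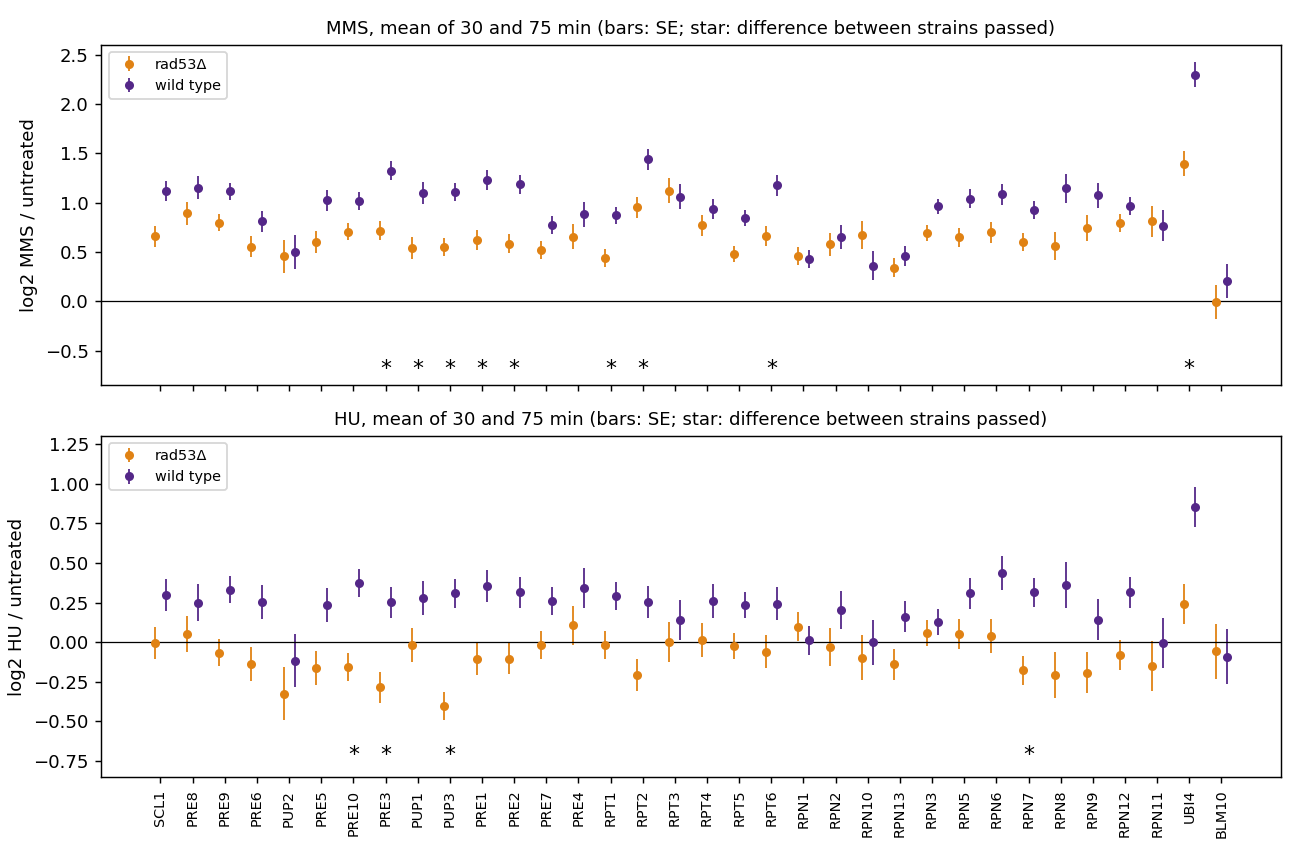
For each of the 34 members the log2 response over 30 and 75 min is drawn for rad53Δ (left point) and wild type (right point), with SE bars, for MMS (top) and HU (bottom), and stars mark genes whose difference between strains passed. In HU the rad53Δ points of 25 members lie below 0.

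Every response above is set against untreated cells, whose own course can be followed only in replicate 1, against the 0 min extract of the same strain. It is given as values with no test. In untreated rad53Δ cells the member median was -0.34 at 30 min and 0.16 at 75 min, with 33 and 9 members below the 0 min level. In untreated wild-type cells it was -0.47 at 30 min and -0.47 at 75 min, with 31 members below 0 min at both.

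Measured against 0 min in place of untreated cells, the member medians of the treated extracts lay close together at 75 min. In MMS the member median was 0.90 in rad53Δ and 0.85 in wild type, and in HU -0.07 in rad53Δ and -0.01 in wild type. RPT2 in MMS at 75 min stood at 1.38 in rad53Δ and 1.49 in wild type, and without treatment at 0.23 in rad53Δ and -0.75 in wild type. PRE3 stood at 0.84 in rad53Δ MMS and 1.21 in wild-type MMS, and without treatment at -0.17 in rad53Δ and -0.61 in wild type. UBI4 stood at 1.04 in rad53Δ MMS and 1.45 in wild-type MMS, and without treatment at -0.93 in rad53Δ and -1.55 in wild type. In HU, PUP3 stood at -0.71 in rad53Δ and -0.16 in wild type, and PRE3 at -0.82 in rad53Δ and -0.18 in wild type, further apart than the member medians. How much of the difference in response came from the untreated cells was not tested.

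**Figure D5:**
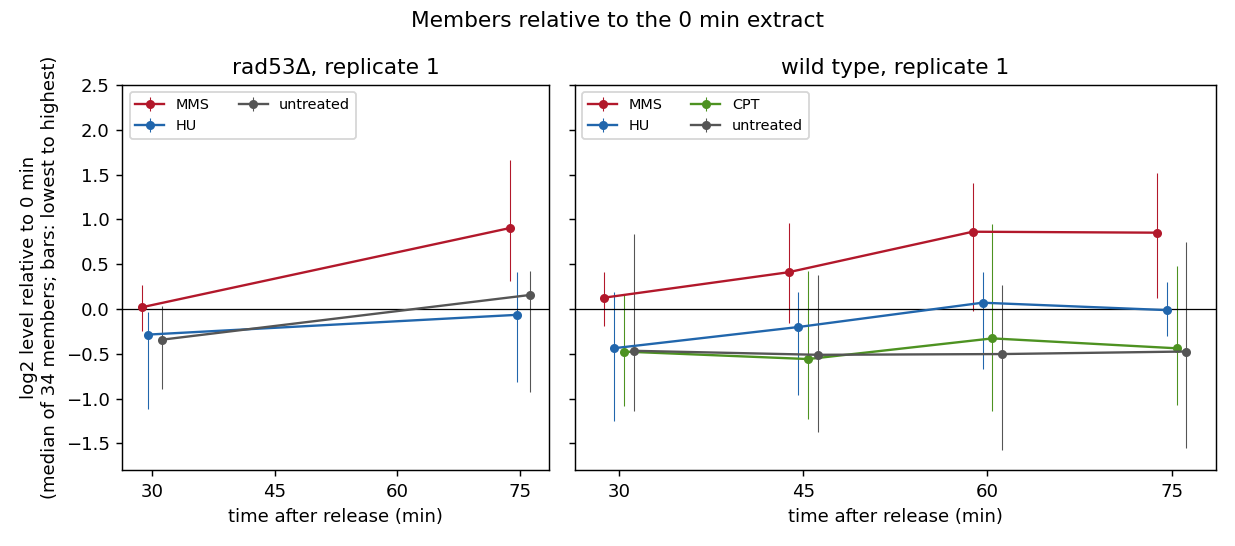
The y axis gives the log2 level relative to the 0 min extract of the same strain in replicate 1, as the median of the 34 members with bars from the lowest to the highest member, against time in min, for rad53Δ (left) and wild type (right). The untreated median rises to 0.16 in rad53Δ and stays between -0.51 and -0.47 in wild type.

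Single members left this common course in untreated wild-type cells. UBI4 fell furthest below 0 min, to -1.14, -1.37, -1.58 and -1.55 at 30, 45, 60 and 75 min. RPN10 stood at 0.83, 0.38, 0.15 and -0.22, and PUP2 at -0.41, -0.13, 0.27 and 0.75, so the pair values of these genes in replicate 1 include a trend of the untreated extracts. RPN11 moved like PUP2, with -0.40, -0.10, 0.13 and 0.38. The direct arrays of replicate 2 hold no 0 min extract and cannot show such a course.

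The members followed each other closely over all conditions. Each was correlated with the mean of the other 33 over 54 extracts, after the mean of each hybridisation block was removed. The median Pearson r was 0.95, and 28 members were above 0.9, led by SCL1, RPN12 and RPT6 at 0.98. The lowest were BLM10 at 0.28, RPN10 at 0.72 and PUP2 at 0.82. These values describe extracts that share arrays and agents, and carry no p-value. No r was taken within a single agent, so how far the values rest on the MMS extracts was not tested.

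Of the named genes outside the set, the 8 most like the member mean were DDI1 at r = 0.98, UFD1 at 0.97, SHP1, CUZ1 and NPL4 at 0.96, AIM46 at 0.95 and VTI1 and YAP1 at 0.94, over the same 54 extracts. DDI1 codes for a shuttle that carries ubiquitinated proteins to the proteasome, UFD1, NPL4 and SHP1 for partners of the segregase Cdc48, VTI1 for a vesicle fusion protein and YAP1 for a transcription factor of oxidative stress. The extracts that chose these genes include the MMS ones, so their values in MMS are no separate result.

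RPN4 (YDL020C), which codes for the activator of the subunit genes, rose in MMS. Its MMS pair values were 0.68, 0.74, 0.60 and 0.72 in replicate 1 and 0.35, 1.08, 0.64 and 1.14 in replicate 2, all above 0, with a mean of 0.74 ± 0.07 (limma adjusted p = 4e-09), beside the member median of 1.1. In HU it rose by 0.19 ± 0.07 (limma adjusted p = 0.043) and in CPT it stood at 0.04 ± 0.07. In rad53Δ MMS it rose by 0.48 ± 0.10, and in rad53Δ HU its pair values were -0.19 and 0.45 in replicate 1 and -0.07 and 0.77 in replicate 2. At 75 min in rad53Δ HU, RPN4 was thus above its untreated level in both replicates. Of the 34 members 5 were above 0 in replicate 1 and 4 in replicate 2. PUP3 and PRE3 were below 0 in both, while the subunit genes PRE4 (0.25 and 0.04) and RPN3 (0.03 and 0.13) were above it. Whether RPN4 moved apart from the subunit genes was not tested. The other listed regulators YAP1, HSF1 and PDR1 rose in wild-type MMS by 1.32 ± 0.08, 0.56 ± 0.07 and 0.53 ± 0.06.

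Genes of factors that assemble or hold the proteasome were higher in MMS in 12 of 13 cases, where 28% of all features were, with a median of 0.56. The largest rises were those of ECM29, whose product ties the core to the cap, at 1.23 ± 0.08, the core maturation chaperone gene UMP1 at 1.04 ± 0.10, and the core chaperone genes ADD66 at 0.96 ± 0.10 and PBA1 at 0.82 ± 0.07. SEM1, which also codes for a lid subunit and was kept in this list, rose by 0.66 ± 0.12. POC4, also a core chaperone gene, stood at -0.06 ± 0.10 in MMS and fell by 0.41 in HU. In HU 7 of the 13 rose (15.8% of all features), led by the ATPase chaperone gene TMA17 at 0.56 ± 0.10, and in rad53Δ MMS 6 rose (8.59% of all features).

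Among 9 shuttle and Cdc48 genes 8 rose in MMS (28% of all features), led by DDI1 at 1.75, UFD1 at 1.4, CUZ1 at 1.34 and NPL4 at 1.14, while UFD2, a ubiquitin chain elongation gene, stood at -0.11 ± 0.08. The same 8 rose in rad53Δ MMS (8.59% of all features), with DDI1 at 0.99 ± 0.13. Of 10 genes of conjugating enzymes 8 rose in wild-type MMS, against the same 28%, UBC4 and UBC5 (close paralogs whose probes may not be specific) by 0.89 each, UBC13 of the postreplication repair pathway by 0.88 and UBC8 by 0.83. RAD6, of the same repair pathway, fell by 0.26. Of 8 ubiquitin ligase genes 3 rose, a share near the 28% of all features, namely the proteasome-bound HUL5 by 1.02 ± 0.06 and the endoplasmic reticulum ligases HRD1 and SSM4 by 0.50 and 0.34.

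Of 10 genes for ubiquitin supply and deubiquitinases 3 rose in MMS, again near the 28% of all features, namely the proteasome-bound UBP6 at 0.89 ± 0.07, DOA4 at 0.64 ± 0.06 and UBP2 at 0.28 ± 0.09. RFU1, an inhibitor of Doa4, fell by 1.44 on the log2 scale in MMS and by 0.63 in HU. In CPT the limma test passed 1 of the 54 genes of all 6 lists, DOA4 at 0.27 ± 0.06, which is near the 2.48% of all features that were higher. In rad53Δ HU, as the mean over both times, it passed 0 of the 54. Of these, 7 were higher and 4 lower at an unadjusted p below 0.05. After adjustment 3.97% of all features were higher and 3.18% lower. At 75 min alone 1 regulator, 1 conjugating enzyme gene and 1 gene for ubiquitin supply or deubiquitinases passed as higher. At that time 1 ubiquitin ligase gene passed as lower (7.65% of all features were lower).

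In galsicΔP cells a minority of the members was lower when NRM1 was deleted. Over 40 and 100 min 8 of 34 were lower in nrm1Δ than in the parent (17.2% of all features), with a median of -0.19 and 32 of 34 below 0. They were BLM10 at -0.51 ± 0.17, RPN12 at -0.34 ± 0.10, RPN5 at -0.33 ± 0.10, PRE1 and RPT6 at -0.31, RPN7 at -0.29, RPT1 at -0.28 and RPT5 at -0.27. A pair here is the nrm1Δ extract minus the parent extract of the same loop and time, and their replicate numbers differ. At these times loop 1 joined parent replicate 1 with nrm1Δ replicate 2, and loop 2 joined parent replicate 2 with nrm1Δ replicate 1. The member medians of the pairs were -0.04 and -0.23 at 40 min and -0.24 and -0.24 at 100 min, in the first and second loop. BLM10 pair values were -1.21 and -0.43 at 40 min and -0.50 and 0.09 at 100 min, so the 40 min pair of loop 1 stood apart from the others. The share of members called lay near that of all features, and the count was 1 without loop 2, 4 without loop 1 and 0 with arrays scaled to equal spread. The median was -0.12 with that scaling and -0.13 without loop 2.

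In the galsicΔP parent the members were lower at 40 min than at 0 min. Of 34, 27 passed (28.5% of all features), with a median of -0.63 and all 34 below 0. UBI4 fell furthest, by 2.20 on the log2 scale (SE 0.19, limma adjusted p = 3.4e-10), followed by BLM10 at -1.34 ± 0.26, RPN5 at -1.30 ± 0.14 and RPN8 at -1.10 ± 0.22, and RPN7 stood at -0.01 ± 0.14. Both 0 min extracts lie in 1 loop with a single 40 min extract of the parent, which stood at member medians of -0.58 and -0.78 against them. UBI4 was at -2.29 and -2.65 there, and RPN4 at -1.96 and -2.20. The fitted changes also draw on the groups of loop 2, which holds no 0 min extract, so they can lie outside these direct differences. Without loop 2 the member median was -0.72. The 0 min extracts themselves differed by a member median of 0.24 (replicate 2 minus replicate 1), and BLM10 by -1.14. These arrays had the widest spread of the series, with SDs of up to 1.43. With arrays scaled to equal spread the count of 27 was 0 (4.45% of all features) and the member median -0.23.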

How the data were processed

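The authors deposited 1 table of array values, which were taken as log2 ratios of Cy5 over Cy3 RNA because they are signed and centred near 0 (array medians -0.0258 to 0.0249). Neither base nor direction is stated. The submitters' processing notes name limma. How background was corrected and arrays were normalised is not given in the sources used here. Without spot intensities the signal behind a ratio is unknown, and the number of arrays limits precision. The table holds 6266 probes without missing values, of which 5609 carried 1 gene symbol, 0 several and 657 none. Probes of a gene were averaged, which gave 6249 features. Names follow RefSeq R64 (5608 matched), and no coordinates are printed because the files name no build.

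Array ratios were turned into levels of 56 extracts by least squares within each strain, with a dye term for each feature. limma 3.58.1 (R 4.3.3) was then fitted to 54 extracts of all strains, with terms for group and for 14 hybridisation blocks (replicate and time, or loop in galsicΔP), which left 20 residual degrees of freedom. The wild-type and rad53Δ 0 min extracts, alone in their blocks, took no part. Replicates of wild type and rad53Δ were never hybridised to each other, so the block is needed for their levels to be comparable. In means over several times each time counts as a separate value, so their p-values can be too small. The title of 1 rad53Δ array says 30 min, which was used, where its source names say 75 min. The steps were tested on simulated data.

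The members, gene lists and comparisons were chosen with earlier results of these data known. Wild-type MMS pair values are given for the genes with the largest and the smallest wild-type MMS change of each subcomplex and for UBI4, BLM10 and RPN4. Those of RPN10, which this rule did not choose, are given too. For some of these genes only the lowest, median and highest pair values are printed. Up to 4 genes per list are given with their mean change. Other genes named beside a count were chosen after their values were seen. Figures were drawn with matplotlib 3.10.9.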

Additional observations from a re-analysis of the deposited data

Results flagged for a closer look

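Differences between strains and times that passed their own test are collected here with their values. For MMS the response of 9 members was smaller in rad53Δ than in wild type (3.44% of all features). Genes are named here only from UBI4, BLM10, RPN4 and the largest and smallest wild-type MMS change of each subcomplex. For MMS these were UBI4 at -0.90, PRE3 at -0.61 and RPT2 at -0.49. For HU the response was smaller for 4 members (1.39% of all features), with PRE3 at -0.53. Between 30 and 75 min the wild-type MMS response grew for 21 members (11.4% of all features). The gain was 1.92 for UBI4, 1.54 for RPT2, 1.12 for PRE3, 1.04 for RPN8 and 0.60 for PRE7. The wild-type HU response grew for 2, UBI4 by 1.20 and RPT2 by 0.70, a share near the 3.87% of all features. The rad53Δ MMS response grew for 2 (0.592% of all features), with UBI4 at 1.11. Each of these counts was lower with arrays scaled to equal spread. No group held enough extracts for a search of single outlying samples.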

How the results depend on the processing

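The counts of members called in wild-type MMS and HU, in MMS against HU or CPT, and in rad53Δ MMS against HU stayed within 1.5 times under all alternatives run, with HU lowest at 19. In rad53Δ MMS the count of 32 was 17 to 25 with 1 rad53Δ replicate left out. With the fit of single arrays and no replicate block, more members were called in several comparisons, and more of all features too. For the strain difference 15 were lower in MMS (6.63% of all features) and 13 in HU (5.79%). For nrm1Δ 22 were lower (24.2%). In rad53Δ HU 3 were lower, a share near the 8.99% of all features, and 1 was higher (10.7%). The growth of the rad53Δ MMS response passed for 24 (7.52%). In CPT that fit gave 4 higher (3.25%) and 0 lower (1.87%). With slide-specific dye terms the strain difference gave 14 in MMS (6.16% of all features) and 1 in HU (0.352%). The growth of the rad53Δ MMS response gave 7 (2.27%), CPT 6 higher (3.81%) and 0 lower (1.94%), and rad53Δ HU 0 lower (0.112%). With arrays scaled to equal spread 4 members were higher (3.68% of all features) and 0 lower (4.51%) in CPT. The response grew for 10 in wild-type MMS (11.2%), 0 in HU (4.58%) and 0 in rad53Δ MMS (0.128%). The lower counts were 0 for the strain difference in MMS (1.12%) and 1 in HU (0.72%). They were 0 for nrm1Δ (2.96%) and 0 for the parent at 40 min (4.45%). With 1 value per replicate and treatment 0 were higher (0.112% of all features) or lower (0.048%) in CPT. In that fit 1 had a smaller HU response in rad53Δ (0.48%). In fits of each strain set alone there were 0 lower in CPT (0.496%), and 1 higher (18.1%) and 4 lower (14%) in rad53Δ HU. These fits gave 3 lower for nrm1Δ (11.6%), 1 for growth in HU (2.59%) and 18 for growth in rad53Δ MMS (7.27%). Leaving out single replicates gave 1 to 4 higher and 0 to 2 lower in CPT, 0 to 10 for the strain difference in MMS, 0 to 4 in HU, 1 to 4 for nrm1Δ, 10 to 13 for growth in MMS, 0 to 3 in HU, 0 to 1 in CPT, and, for the leave-outs of rad53Δ replicates, down to 0 for growth in rad53Δ MMS and 0 lower in rad53Δ HU. The share of all features called moved in these fits as well, and the cause of these moves was not tested. Of 1727 repeats for single named genes, 1594 kept their side of the threshold, 79 lost and 54 gained a call. None that passed in the main fit or in the repeat changed direction. Results that passed in neither were counted as kept without a check of direction. Without loop 1 the parent has no 0 min extract, so that comparison has no value. The planned search for promoter motifs was not run, for want of sequences. No signal over background is known, so probes near background could not be told apart.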
